A study of Mus musculus with 4 samples.

Results

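Expression of 10 genes of the immediate early response was followed in cultured mesenchymal cells of the mouse vibrissa (whisker) follicle. The genes were the Fos family members Fos, Fosb, Fosl1 and Fosl2, the Jun family members Jun, Junb and Jund, and the early genes Egr1, Ier2 and Ier3. They were selected by name, and each matched 1 row among the 51826 gene IDs of the count table. The study sequenced dermal papilla cells (DPCs), from the mesenchymal core of the hair bulb, and dermal sheath cells (DSCs), from the connective tissue sleeve around the follicle. Both were grown from young C57BL/6J mice that carry an EGFP transgene and whose genotype the labels give as WT. Both were cultured in DMEM with fetal bovine serum, with no treatment named in the labels. The study's methods do not give the time from feeding to harvest of these cells, and its part in the values was not tested. Each cell type was sequenced at low passage (passage 3) and at high passage (passage 9), which gave 4 libraries with 1 library per group. There were thus no replicate cultures, and the number of mice behind a culture was not given in the sources used here.

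AP-1 is a dimeric transcription factor made of a Fos protein and a Jun protein, or of 2 Jun proteins. Fos proteins do not form stable dimers with each other and depend on a Jun partner to bind DNA. Fos, Fosb, Jun, Junb, Egr1, Ier2 and Ier3 are classical immediate early genes, which are transcribed within minutes of serum, growth factor or stress signals without need for new protein synthesis. Their transcripts are short-lived, so their level reports a recent state of the culture. Fosl1 and Fosl2 are induced later and more lastingly, and Jund is produced in most cells without stimulation. In skin mesenchyme AP-1 is known for the control of proliferation, matrix remodelling and wound responses.

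The sequence directly upstream of a gene is one place where such signals are read, so promoters are shown for 4 members. These are the 3 that were at least 2-fold higher at high passage in DPCs (Fos, Fosb and Ier3) and Jun, which was lower at high passage in DPCs and higher in DSCs. The RefSeq promoter table (build GRCm38.p6) held windows for 7 of the 10 members, and the windows of 4 members held the gene start given in the deposited tables. Only bases before both starts are printed, 5′ to 3′ on the strand of the gene, and capitals mark the motifs found. The printed stretches lie at chr12:85473640-85473889 (+), chr7:19310052-19310295 (−), chr4:95052223-95052472 (−) and chr17:35821463-35821683 (+).
Fos: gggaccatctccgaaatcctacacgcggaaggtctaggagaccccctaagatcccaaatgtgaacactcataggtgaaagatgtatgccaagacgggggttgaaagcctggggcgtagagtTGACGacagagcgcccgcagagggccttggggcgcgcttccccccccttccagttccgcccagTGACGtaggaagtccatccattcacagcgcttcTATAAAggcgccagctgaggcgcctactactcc
Fosb: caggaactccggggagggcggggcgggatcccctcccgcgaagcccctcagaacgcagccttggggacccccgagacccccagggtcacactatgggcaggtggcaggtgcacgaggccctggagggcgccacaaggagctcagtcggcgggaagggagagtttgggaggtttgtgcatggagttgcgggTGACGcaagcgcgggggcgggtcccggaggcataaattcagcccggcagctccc
Jun: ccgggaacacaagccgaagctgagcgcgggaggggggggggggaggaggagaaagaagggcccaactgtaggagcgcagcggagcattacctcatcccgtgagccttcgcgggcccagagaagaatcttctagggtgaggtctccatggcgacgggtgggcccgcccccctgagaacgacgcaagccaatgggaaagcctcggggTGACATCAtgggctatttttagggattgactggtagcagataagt
Ier3: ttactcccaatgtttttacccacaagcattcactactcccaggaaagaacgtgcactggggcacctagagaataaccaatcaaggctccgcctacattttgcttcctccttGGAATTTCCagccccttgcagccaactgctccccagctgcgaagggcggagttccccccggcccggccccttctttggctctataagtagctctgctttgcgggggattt

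Motifs were searched on both strands of each whole window, from 250 bases before to 50 bases after the RefSeq start. The letters were TGACGTCA for the cyclic AMP response element (CRE), TGAGTCA for the AP-1 site, CCGGAAGT for an ETS site and TATAAA for the TATA box, with the CArG box of serum response factor searched by name. The shorter TGACG, with which the full CRE begins, the variant TGACATCA and the kappaB site GGAATTTCC were added after the windows had been seen. The Fos window held TATAAA at positions −33 to −28 from the RefSeq start and TGACG at −129 to −125 and again at −66 to −62. The Fosb window held TGACG at −60 to −56. The Jun window held TGACATCA at −45 to −38, and the Ier3 window held GGAATTTCC at −139 to −131. Among all 32851 windows of the table, 13.6% held TATAAA, 20.8% held TGACG, 3.62% held TGACATCA and 0.317% held GGAATTTCC. The full CRE (1.79% of windows), the AP-1 site (5.2%), the ETS site (3.89%) and the CArG box (1.63%) were not matched in the windows of these 4 members. This says only that these letters are not in these windows, and sequence further upstream was not searched. The GC content was 58.7% in the Fos window, 68.3% for Fosb, 60% for Jun and 54% for Ier3, against a median of 52.7% over all windows.

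The libraries held between 34981284 and 47604059 counts, and a count of 0 allowed at most 0.0836 CPM (counts scaled to the depth of the library) in the shallowest of them. Levels within a gene are given below as TMM-scaled CPM, and levels between genes as the FPKM values the authors deposited, which are per transcript length. Fibroblast markers summed to between 7370 and 27100 CPM in each library. Of the 9 markers fixed for the dermal papilla, the transcription factor gene Sox2 was higher in DPCs than in DSCs at passage 3 (45.6 against 7.09 CPM) and at passage 9 (41.6 against 3.91 CPM). Lef1, the Wnt effector gene, was higher in DPCs at passage 3 (508 against 101 counts), but at passage 9 it had 2 counts in DPCs and 55 in DSCs. Ncam1 was higher in DSCs at both passages, and Corin and Sox18 were at 0 in DPCs at passage 3. Markers of the dermal sheath summed to 9430 CPM in DPCs and 7510 CPM in DSCs at passage 3, with Acan (2.94 against 34.3 CPM) higher in DSCs and Itga8 (186 against 44.1 CPM) higher in DPCs. The lists did not all point one way, and the cell type names follow the labels. The keratinocyte markers Krt5, Krt14, Krt15, Krt6a and Cdh1, the melanocyte markers Dct, Tyr and Mlana and the T cell marker Cd3e were at 0 in every library. From the same melanocyte list, Mitf had 394 and 980 counts in DPCs at passages 3 and 9 and 435 and 544 in DSCs. Pmel had between 17 and 47 counts. In RNA from whole cultures, fewer cells using a gene cannot be told apart from less RNA per cell. Without replicates no contrast between a pair of libraries was tested, and every interval below covers counting error only. A difference is called 4-fold or 2-fold where the log2 fold change reached 2 or 1.

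The plot of CPM by library sets out where each member stood.

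**Figure D1:**
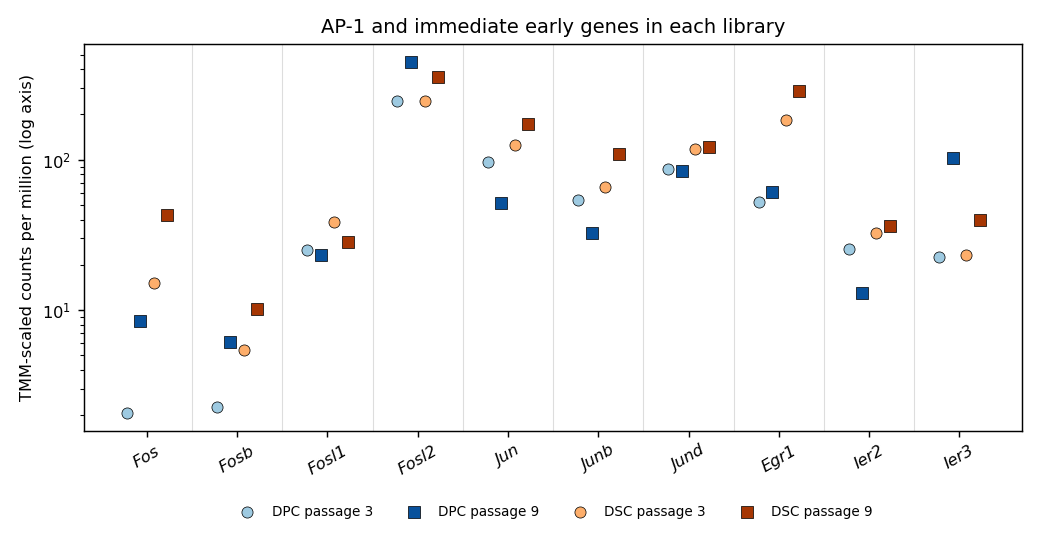
TMM-scaled CPM (log axis) of the 10 genes in the 4 libraries, with 1 point per library. The high-passage DSC library had the highest level of 7 of the 10 genes, and Fos spanned the widest range, from 2.07 to 43.1 CPM.

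High-passage DSCs had the highest level of 7 members, where 19.3% of the 16734 genes with a mean count of at least 10 were highest in that library. High-passage DPCs were highest for 2 members (34.4% of all genes), low-passage DSCs for 1 (19%) and low-passage DPCs for 0 (27.3%). Each DPC library was lowest for 5 members, against 28.3% of all genes for low passage and 34% for high passage, and no member was lowest in a DSC library.

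Fos (ENSMUSG00000021250, chr12:85473890-85477273 on the plus strand, positions here and below as in the deposited tables, which fit build GRCm38) encodes c-Fos, the prototype of the family and a short-lived activator. In DPCs it had 76 counts at passage 3 and 303 at passage 9, and in DSCs 575 and 1964. These were 2.07, 8.44, 15.2 and 43.1 CPM, so that both DSC libraries lay above both DPC libraries and each high-passage library lay above its low-passage counterpart. The change with passage was 2.01 on the log2 scale in DPCs (95% counting interval 1.66 to 2.41), or 4.01-fold, and 1.50 in DSCs (1.37 to 1.64), or 2.84-fold. DPCs were 7.19-fold lower than DSCs at low passage and 5.08-fold lower at high passage, with log2 differences of −2.85 (−3.24 to −2.53) and −2.35 (−2.53 to −2.18). At low passage 1.18% of all tested genes lay at or below the Fos difference, and at high passage 3%. The 4-fold call in DPCs sits at the threshold and was lost under 4 of the alternative settings, where the lowest value was 1.40.

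Fosb (ENSMUSG00000003545, chr7:19302696-19310051, minus strand), whose protein and short splice form act as activator and repressor, was the least abundant member per length in every library. From passage 3 to passage 9 its counts were 83 and 221 in DPCs and 207 and 463 in DSCs, or 2.26, 6.16, 5.46 and 10.2 CPM. Fosb was higher at high passage in both cell types, by 1.43 in DPCs (1.08 to 1.83) and by 0.89 in DSCs (0.66 to 1.14), and it was 2.39-fold lower in DPCs than in DSCs at low passage and 1.64-fold lower at high passage. Unlike Fos, its high-passage DPC value lay above the low-passage DSC value.

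Fosl1 (ENSMUSG00000024912, chr19:5447703-5455945, plus strand) encodes Fra-1, which lacks the strong activation domain of c-Fos. At passages 3 and 9 its counts were 918 and 838 in DPCs and 1452 and 1297 in DSCs, or 24.9, 23.4, 38.3 and 28.5 CPM. The DPC libraries could not be told apart at this depth (−0.10, −0.23 to 0.04). In DSCs it was 1.34-fold lower at high passage (−0.43, −0.54 to −0.32), and Fosl1 was the only member with a lower value at high passage there. The gene shares 2767 bases with Ccdc85b on the opposite strand, for which the table lists 632, 212, 499 and 680 counts, and whether the counting used strand was not given in the sources used here.

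Fosl2 (ENSMUSG00000029135, chr5:32135801-32157842, plus strand), which encodes Fra-2, was the most abundant Fos family member per length in all 4 libraries, with 35.4 FPKM at passage 3 and 64.1 at passage 9 in DPCs and 33.2 and 46.9 FPKM in DSCs. In the same order its counts were 9059, 16136, 9388 and 16165. The low-passage libraries did not differ beyond counting error (−0.01, −0.05 to 0.03). At high passage Fosl2 was 1.83-fold higher in DPCs and 1.43-fold higher in DSCs, which left it 1.27-fold higher in DPCs than in DSCs.

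Jun (ENSMUSG00000052684, chr4:95049034-95052222, minus strand) encodes c-Jun, the main activating partner of the Fos proteins. Between passages 3 and 9 its counts went from 3571 to 1855 in DPCs, but from 4751 to 7823 in DSCs. In CPM these were 97.0, 51.7, 125 and 172, so that the high-passage libraries held both the lowest and the highest value. Jun was 1.88-fold lower at high passage in DPCs (−0.91, −0.99 to −0.83) and 1.37-fold higher in DSCs (0.45, 0.40 to 0.51). DPCs were 1.29-fold lower than DSCs at low passage and 3.32-fold lower at high passage.

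Junb (ENSMUSG00000052837, chr8:84974484-84976542, minus strand), whose protein often counters c-Jun in growth control, had the same order of libraries as Jun. Its counts at passages 3 and 9 were 1986 and 1174 in DPCs and 2478 and 5000 in DSCs, or 54.0, 32.7, 65.3 and 110 CPM. It was 1.65-fold lower at high passage in DPCs (−0.72, −0.83 to −0.62) and 1.68-fold higher in DSCs (0.75, 0.68 to 0.82), and the DPC to DSC difference was −0.28 at low passage and −1.74 at high passage. The genes Junb and Prdx2 overlap by 351 bases on opposite strands in the GENCODE M21 annotation, and Prdx2 had 5263, 3578, 3820 and 5525 counts. The overlap of Jun with its antisense gene Junos (689 bases) concerned at most 93 counts.

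Jund (ENSMUSG00000071076, chr8:70698949-70700616, plus strand), whose protein is linked with quiescence, held nearly the same level at both passages. It had 3211, 3029, 4448 and 5559 counts, or 87.3 and 84.4 CPM in DPCs and 117 and 122 CPM in DSCs. The interval of the passage change included 0 in DPCs (−0.12 to 0.02) and in DSCs (0.00 to 0.11), which bounds a change from counting alone but not between cultures. DPCs were 1.34-fold lower at low passage and 1.44-fold lower at high passage.

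Egr1 (ENSMUSG00000038418) encodes a zinc finger activator that is induced through serum response factor and ERK signals. It had 1920 and 2186 counts in DPCs at passages 3 and 9 and 6922 and 13122 counts in DSCs, or 52.2, 60.9, 183 and 288 CPM. The DSC libraries were well above both DPC libraries, by 3.5-fold at low passage (log2 −1.81 for DPCs over DSCs, −1.88 to −1.73) and by 4.72-fold at high passage (−2.24, −2.31 to −2.17). The change with passage was smaller than this gap, at 1.17-fold in DPCs and 1.58-fold in DSCs.

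Ier2 (ENSMUSG00000053560, chr8:84661331-84662852, minus strand), a nuclear early response protein, followed the order of Jun and Junb. Its counts were 931, 468, 1242 and 1648, or 25.3, 13.0, 32.8 and 36.2 CPM. It was 1.94-fold lower at high passage in DPCs (−0.95, −1.12 to −0.79). In DSCs the change was 0.14 (0.04 to 0.25), and this interval included 0 once counts were halved to allow for counting of both mates of a pair.

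Ier3 (ENSMUSG00000003541, chr17:35821684-35822923, plus strand), an early gene linked with survival and ERK signalling, had the largest passage change among the members in DPCs. In DSCs the changes of Fos and Fosb were larger. It had 830 counts in DPCs at passage 3 and 3694 at passage 9, and 878 and 1817 counts in DSCs, or 22.5, 103, 23.2 and 39.9 CPM. The low-passage libraries did not differ beyond counting error (−0.04, −0.18 to 0.10). At high passage Ier3 was 4.56-fold higher in DPCs (2.19, 2.08 to 2.30) and 1.72-fold higher in DSCs (0.78, 0.67 to 0.90). The high-passage DPC library thus stood 2.58-fold above the high-passage DSC library, the only member at least 2-fold higher in DPCs.

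Because AP-1 activity depends on which Fos and Jun proteins are present, the makeup of each family was compared per length. The plot of stacked FPKM shows it for each library.

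**Figure D2:**
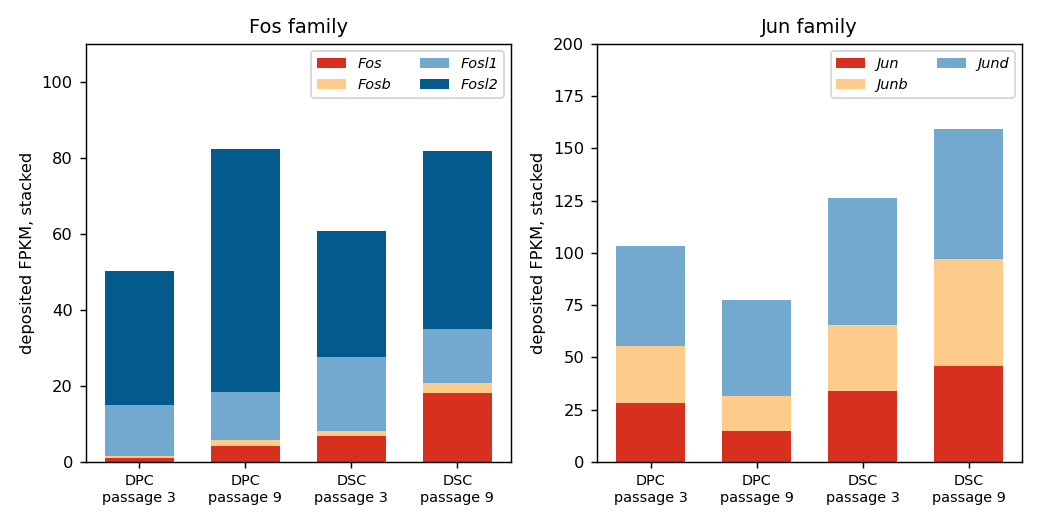
Deposited FPKM of the Fos family (left) and the Jun family (right), stacked by gene, in 1 library per bar. The Jun family sum was lowest in high-passage DPCs (77.5 FPKM) and highest in high-passage DSCs (159 FPKM), and Fosl2 took the largest share of the Fos family in each library.

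The summed FPKM of the Fos family went from 50.3 at passage 3 to 82.5 at passage 9 in DPCs and from 60.7 to 81.8 in DSCs, or 1.64 and 1.35 times the passage 3 value. The sum of the Jun family went from 103 to 77.5 in DPCs and from 126 to 159 in DSCs, or 0.75 and 1.26 times. Jun transcripts per Fos transcript therefore stood at 2.05 in DPCs and 2.08 in DSCs at passage 3 and at 1.94 in DSCs at passage 9, but at 0.94 in DPCs at passage 9. These are ratios of RNA and not of protein.

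Fosl2 made up 70.3% of the Fos family in low-passage DPCs and 77.7% in high-passage DPCs, against 54.7% and 57.3% in DSCs. Fos took 1.93% and 5.09% in DPCs and 11.2% and 22.1% in DSCs. The share of Fosl1 was 26.7% and 15.2% in DPCs and 32.1% and 17.3% in DSCs, lower at high passage in both. In the Jun family Jund led in every library, with 46.5% and 59.6% in DPCs and 48.3% and 39% in DSCs. Jun held between 19.1% and 28.7% and Junb between 21.3% and 32.3%, each lowest in high-passage DPCs. These shares depend on the scaling by length. By raw counts Jun led in 3 libraries, with 40.7% against 36.6% for Jund in DPCs at passage 3 and 40.7% against 38.1% and 42.6% against 30.2% in DSCs, and the share of Fos in high-passage DSCs was 9.87%. Fosl2 led the Fos family by raw counts as well, with 80.8% to 92.2%.

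The plot of passage changes sets the members' values in DPCs and DSCs side by side.

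**Figure D3:**
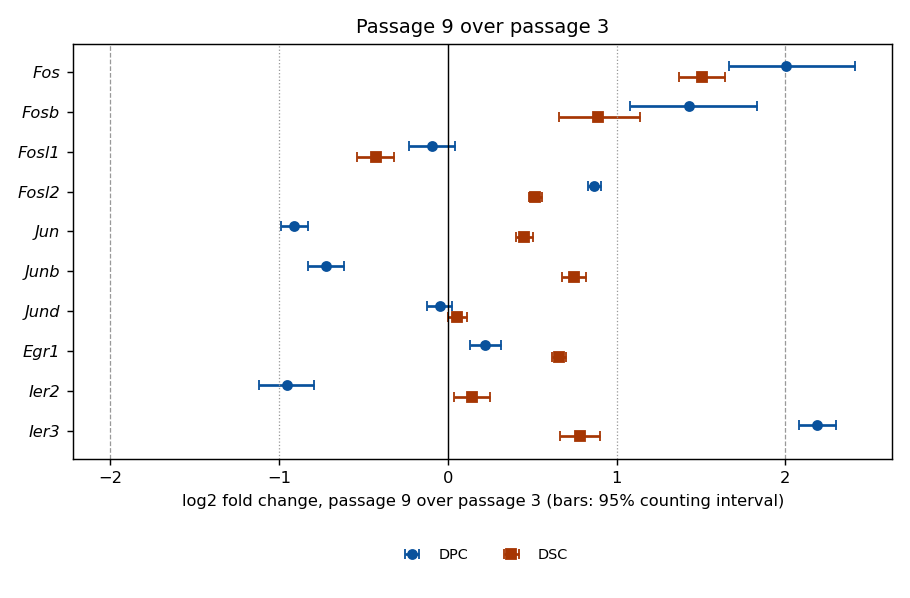
log2 fold change from passage 3 to passage 9 of each gene in DPCs (circles) and DSCs (squares). Bars are 95% counting intervals from 1 library per group, dotted lines mark 2-fold and dashed lines 4-fold. Jun, Junb and Ier2 lie left of 0 in DPCs and right of 0 in DSCs.

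In DPCs, 2 of the 10 members were at least 4-fold higher at high passage (Fos and Ier3, background 5.58% of all tested genes) and 0 were 4-fold lower (background 4.36%). At 2-fold, 3 members were higher (Fos, Fosb and Ier3, background 16.1%) and 0 were lower (background 15%). The median change of the members in DPCs was 0.09 against 0.03 over all genes, with 5 members above and 5 below 0. In DSCs, 0 members were 4-fold higher (background 2.67%) or 4-fold lower (background 1.16%). At 2-fold, 1 member was higher in DSCs (Fos, background 8.55%) and 0 were lower (background 6.21%). Their median change in DSCs was 0.59 against 0.00 over all genes, and 9 members were above 0, where 50.2% of all genes were.

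Fos alone was at least 2-fold higher at high passage in both cell types, as were 4.86% of all genes, and 0 members were 2-fold lower in both, where 3.54% were. The change in DPCs minus the change in DSCs was positive for Fos (0.50), Fosb (0.54), Fosl1 (0.33), Fosl2 (0.35) and Ier3 (1.41). It was negative for Jun (−1.36), Junb (−1.47), Jund (−0.10), Egr1 (−0.43) and Ier2 (−1.10). The 5 positive values of 10 are near the 49.4% of all tested genes that were positive. As a description of these libraries, the Fos family was on the positive side and the Jun family on the negative side, and no sign turned under the other scalings, prior counts or FPKM, where the Fos difference ranged from 0.10 to 0.60 and that of Fosb from 0.09 to 0.55. At full counts the counting interval of each of these 10 differences excluded 0, the nearest being −0.20 to −0.01 for Jund. These intervals were not recomputed with halved counts, which would widen them. Those of Fos (0.11 to 0.89), Fosb (0.11 to 0.97) and Jund may then include 0. The differences were not tested across cultures.

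The plot of DPC over DSC shows the gap between the cell types at each passage.

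**Figure D4:**
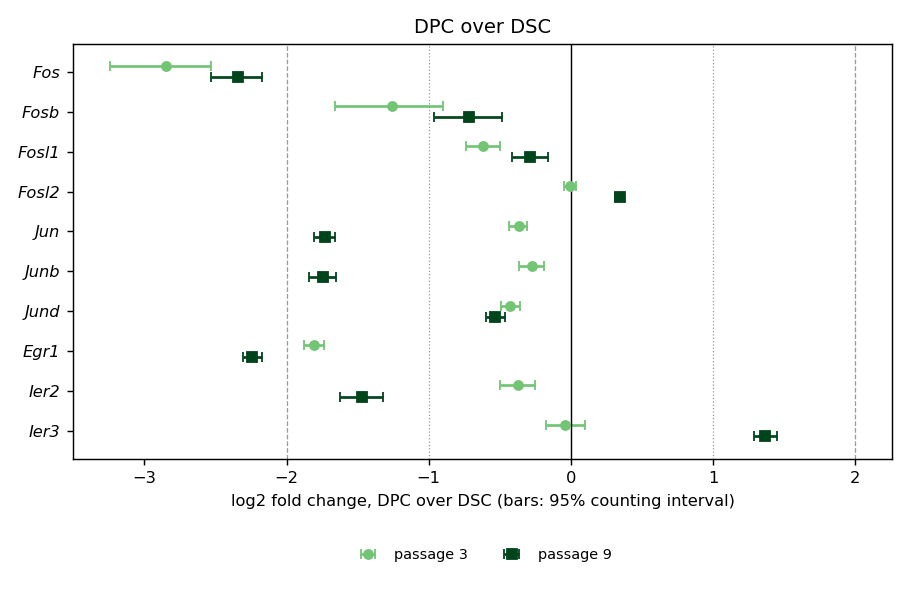
log2 fold change of DPCs over DSCs for each gene at passage 3 (circles) and passage 9 (squares), with 95% counting intervals from 1 library per group. Dotted lines mark 2-fold and dashed lines 4-fold. At passage 3 all 10 values lie below 0, those of Fosl2 and Ier3 within counting error and above 0 under other scalings, and at passage 9 only Fosl2 and Ier3 lie above it.

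At low passage all 10 members had a lower value in DPCs than in DSCs, where 50.2% of all genes were higher in DPCs, but Fosl2 and Ier3 were within counting error of 0 and reached 0.09 and 0.05 under other scalings. Of the members 3 were at least 2-fold lower in DPCs (Fos, Fosb and Egr1, background 7.86%) and 0 were 2-fold higher (background 5.43%). The median was −0.40 against 0.00 over all genes. At high passage 5 members were at least 2-fold lower in DPCs (Fos, Jun, Junb, Egr1 and Ier2, background 11%) and 1 was 2-fold higher (Ier3, background 9.11%), with a median of −1.09 against −0.01. Fos and Egr1 were at least 2-fold lower in DPCs at both passages, where 3.32% of all genes were. The 4 libraries are shared by these contrasts and the passage contrasts, so their values are not independent of each other.

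A passage effect common to both cell types and a cell type effect common to both passages were tested in an additive model with edgeR's quasi-likelihood test, which pairs the passages within a cell type. This model was added after the data had been seen. No culture was replicated, so the 1 residual degree of freedom of a gene is the gap between the 2 cell types in their passage change. The test draws the spread of each gene towards that of all genes, so its p-values also lean on other genes. No member passed a Benjamini-Hochberg adjusted p of 0.05 for passage or for cell type, and 0% of all tested genes did in either direction. At an unadjusted p under 0.05, 1518 of the 16734 tested genes were higher and 1304 lower at high passage. The members held 4 of the higher genes (Fos, Fosb, Fosl2 and Ier3) and 0 of the lower. For cell type, 516 genes were higher and 865 lower in DPCs at the same unadjusted level, with 5 members among the lower (Fos, Fosb, Jun, Egr1 and Ier2). The smallest adjusted p of a member in edgeR was that of Fos, at 0.188 for passage (common log2 change 1.76) and 0.115 for cell type (−2.60). The common passage value of Jun (−0.23) and Junb (0.02) averages the opposite values in DPCs and DSCs. Likewise, the common cell type value averages unlike gaps at passages 3 and 9, of −0.37 and −1.73 for Jun and −0.37 and −1.47 for Ier2.

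The other genes of the immediate early response were compared from a fixed list of 44, of which 42 passed the filter. The plot of the changes in both cell types places the 10 members among them.

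**Figure D5:**
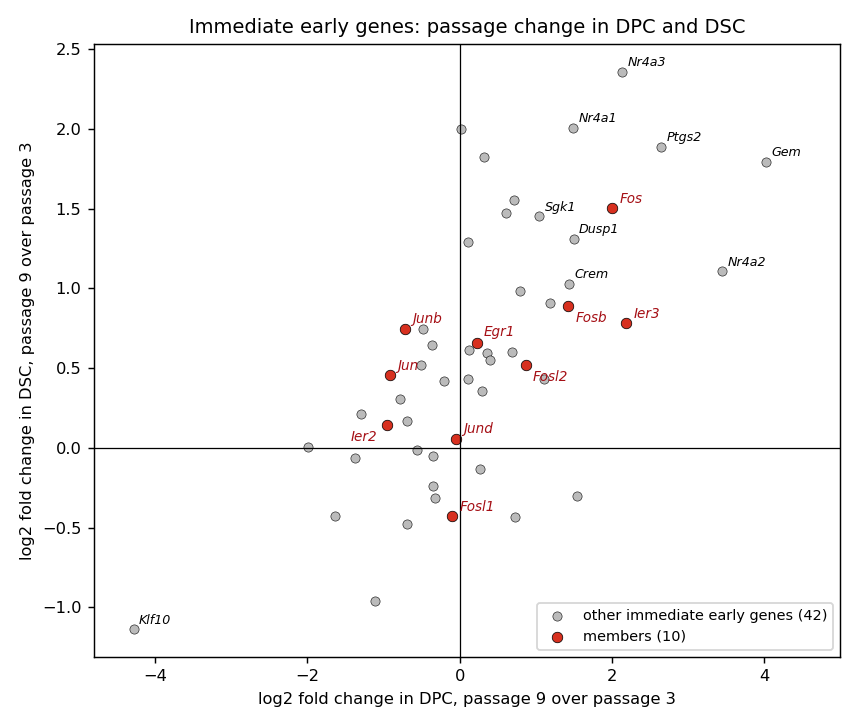
log2 fold change from passage 3 to passage 9 in DPCs (x axis) and DSCs (y axis) for the 10 members (red) and 42 other immediate early genes (grey), with 1 library per group. Names are given for the members and for other genes past 2-fold in the same direction in both. The orphan receptor genes Nr4a1, Nr4a2 and Nr4a3 lie to the upper right with Fos.

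Of these 42 genes, 11 passed 2-fold upwards and 6 downwards at high passage in DPCs, against 13 and 1 in DSCs. Over all tested genes the same shares were 16.1% and 15% in DPCs and 8.55% and 6.21% in DSCs, and they stand as the background of the lists below as well. The downward count in DPCs was near that background. The medians of the list were 0.19 and 0.54. The 8 genes 2-fold higher in both cell types (background 4.86%) were the orphan nuclear receptors Nr4a1, Nr4a2 and Nr4a3, the MAP kinase phosphatase Dusp1, the kinase Sgk1, the small GTPase Gem, the CRE modulator Crem and the prostaglandin synthase Ptgs2. Only Nr4a3 passed 4-fold in both, with 99 and 431 counts in DPCs at passages 3 and 9 (log2 2.14) and 51 and 324 in DSCs (2.36). Nr4a1 had 986, 2701, 633 and 3068 counts, a change of 1.49 in DPCs and 2.01 in DSCs. Among the genes with the largest changes, Gem had 90 and 1451 counts in DPCs (4.02) and 126 and 531 in DSCs (1.79), while Nr4a2 had 119 and 1284 (3.45) and 173 and 451 (1.11).

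Klf10, a zinc finger gene induced by TGF-beta, was the only one 2-fold lower in both cell types, at −4.28 in DPCs (433 to 20 counts) and −1.14 in DSCs (584 to 318 counts). Ctgf, a matrix gene that responds to TGF-beta and YAP, was lower in DPCs (−1.99, 783 to 196 FPKM) and stood at 0.00 in DSCs. Myc, a growth factor induced regulator of cell growth, was at −1.11 in DPCs and −0.96 in DSCs. Egr2, the closest relative of Egr1 on the list, had 209, 254, 401 and 1714 counts and, like Egr1, was higher in both DSC libraries than in both DPC libraries.

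Of 13 other AP-1 partners fixed on a list, 10 passed the filter, and 4 of these were 2-fold higher and 0 lower at high passage in DPCs, against 0 and 0 in DSCs. Their median was 0.56 in DPCs and −0.04 in DSCs. Maff, a small Maf without an activation domain, was at 1.29 and 0.56. Atf7 had 1280 and 3122 counts in DPCs (1.32), while its FPKM went from 18.7 to 25.7. Jdp2, a repressor that dimerizes with Jun proteins, was at −0.91 in DPCs and −0.18 in DSCs, and Atf3, a stress-induced partner of Jun, was at −0.57 and −0.10. In DSCs Atf4, the effector of the integrated stress response, stood at −0.53, and the small Maf gene Mafk at 0.36.

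Of 22 kinases and factors that act upstream of the early genes, 4 were 2-fold higher in DPCs, which is near the background, and 0 were lower. In DSCs 0 passed 2-fold in either direction, and the medians were −0.03 and −0.11. Rps6ka5, the nucleosomal kinase MSK1, was at 1.28 and 0.56, and the ternary complex factor Elk3 at 1.20 and 0.18. Srf, the factor that binds the CArG box, had 4736, 3640, 4515 and 4600 counts, with values of −0.34 and −0.24. The lowest values in DPCs were those of the p38 kinase gene Mapk14 (−0.85) and the ERK kinase gene Map2k2 (−0.85). In DSCs they were those of Map3k1 (−0.55), a kinase upstream of JNK, and Creb1 (−0.48), whose protein binds the CRE, while the JNK kinase gene Map2k7 was at 0.53.

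Genes that respond to ERK and feed back on it were counted as a further readout. Of 12 such genes, 3 were 2-fold higher and 2 lower in DPCs, and 3 were higher and 0 lower in DSCs, with medians of 0.26 and 0.43. Etv1, an ETS factor, was higher in DPCs (2.37, 905 to 4583 counts) and in DSCs (1.66, 291 to 1110), as was the inhibitor Spry4 (1.97 and 1.25). The ERK phosphatases did not share this direction in DPCs. Dusp4 went from 519 to 83 counts (−2.58) and Dusp5 from 264 to 97 (−1.39), while Dusp6 had a value of −0.21 in DPCs and 1.33 in DSCs. In DSCs Dusp5 (−0.45) and the inhibitor gene Spred2 (−0.18) had the lowest values. The EGR corepressors Nab1 and Nab2 were at −0.09 and −0.51 in DPCs and at −0.20 and −0.04 in DSCs.

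Among 18 genes known as AP-1 targets, 4 were 2-fold higher and 9 lower at high passage in DPCs, and 2 were higher and 2 lower in DSCs, with medians of −0.93 and 0.06. The stromelysin gene Mmp3 had 146 and 6252 counts in DPCs (5.44) and 63 and 1793 in DSCs (4.52). The study itself picked Mmp3 from these libraries, so its place on the list is not independent of them. Spp1, the gene of osteopontin, was 4-fold higher in both as well (2.40 and 2.24, 5294 FPKM in high-passage DSCs). The cytokine gene Lif was at 2.95 in DPCs and 0.58 in DSCs. In the other direction, the urokinase gene Plau had 1647 and 203 counts in DPCs (−2.97) and 655 and 642 in DSCs (−0.29), and the urokinase receptor gene Plaur was at −0.58 in DPCs and −1.37 in DSCs. The chromatin gene Hmga2 was at −1.95 and −0.39, and Hmga1 at −0.85 in DSCs.

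Other markers moved along with passage, and their part in the values above was not tested. Of 10 heat shock genes, 3 were 2-fold higher in both cell types (Hspa1a, Hspa1b and Hsph1), and the summed level of the list was 2510 and 3710 CPM in DPCs and 2390 and 2670 CPM in DSCs. The value of Hsph1 was 2.78 in DPCs, that of Hspa1a 1.33 in DSCs, and that of Hspa1b 1.87 and 1.54. The mitochondrial chaperone genes Hspd1 (−0.85) and Hspe1 (−0.82) were lowest in DPCs, and Hspd1 (−0.61) and Hspa8 (−0.33) in DSCs. Hspa1b had 5639, 20048, 6466 and 22546 counts, but it and Hspa1a are near-identical copies and reads may have been split or shared between them. Proliferation markers (6 genes) summed to 632 and 188 CPM in DPCs and 538 and 252 CPM in DSCs. Immune markers, led by Lyz2, summed to 125 and 64.5 CPM in DPCs and 174 and 95.5 CPM in DSCs. The keratinocyte list reached 51.4 CPM in high-passage DSCs, of which 50.6 CPM was the desmosomal gene Dsp, against 0.679 to 5.52 CPM in the other libraries. The Schwann cell list summed to 11.2 and 3.65 CPM in DPCs and 28 and 5.09 CPM in DSCs. Its genes Ngfr (144 and 544 counts in DPCs and DSCs at passage 3) and Sox10 (28 and 116 counts) were at 0 in both libraries at passage 9. The endothelial list went from 2.42 to 0.111 CPM in DPCs and from 5.64 to 1.08 CPM in DSCs, with Cdh5 at 0 in both and Tek at 0 in DPCs at passage 9. Of 8 fibroblast markers, 1 was 2-fold higher and 4 lower in DPCs, and 3 were higher and 0 lower in DSCs. Of 6 sheath markers, 1 was higher and 5 lower in DPCs, and 2 were higher and 1 lower in DSCs. Col1a1 (−2.57), Col3a1 (−3.00) and Myh11 (−4.05) were lower at high passage in DPCs, and in DSCs they stood at −0.37, 0.38 and 1.31. Pdgfra (1.42) and Itga8 (2.38) were higher in DPCs. In DSCs Dcn (4.50) and Itga8 (3.53) were higher and Acan (−4.27) lower.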

How the data were processed

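For DPCs and DSCs at passages 3 and 9 (RNA-seq, 1 library each) the study's methods describe poly-T selected mRNA, an NEBNext kit and paired-end reads, whereas the labels name a TruSeq kit. The submitters' processing notes name Bowtie 0.12.2 and the builds mm8 and mm9, while 94.1% of the IDs had the position of GENCODE M21 (GRCm38). The counting program and the use of strand were not given in the sources used here.

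The authors deposited raw counts per gene, which are whole numbers without normalization, and FPKM values, which they had normalized for transcript length and depth. Counts were scaled with TMM in edgeR 4.0.16 (R 4.3.3), and log2 fold changes of CPM used a prior count of 2. Genes with a mean count of 10 or more entered the comparisons, 16734 of 51826, and all 10 members passed. Intervals are exact Clopper-Pearson 95% intervals of a library's share of the counts of a pair of libraries. That of a difference of changes uses the Poisson variance of the 4 counts. They cover counting error only, and a floor of 3 counts was used. Pairs of libraries were not tested. An additive model of cell type and passage (edgeR's quasi-likelihood test, 1 residual degree of freedom), added after the data were seen, gave the only p-values. DESeq2 1.42.0 size factors, total counts, other prior counts, filters, FPKM with pseudocounts and, for family shares, raw counts served as alternatives. The scripts were checked on simulated data. Members, lists, markers and thresholds were chosen with earlier results of these data known. Genes named from the 7 other lists are those past 4-fold in the same direction in both cell types and the 2 with the largest changes each way in each cell type at a mean count of at least 100. Others (Srf, Egr2 and those past 2-fold in both) were chosen after their values were seen. Where a symbol had several rows (Map2k7), that with more counts was used. A gene that this rule names is not reported here.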

Additional observations from a re-analysis of the deposited data

Results flagged for a closer look

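Of the 10 members, 3 moved in opposite directions with passage in DPCs and DSCs, with counting intervals on opposite sides of 0. The change in DPCs minus that in DSCs was −1.362 for Jun, −1.468 for Junb and −1.096 for Ier2 on the log2 scale. With 1 library per group these differences were not tested across cultures. For Ier2 the interval in DSCs included 0 with halved counts.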

How the results depend on the processing

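Over 7 alternative settings for the 40 changes of the members, 238 of 280 values moved by less than their counting interval, 42 moved further, and 0 of those whose interval excluded 0 changed sign. The members 4-fold higher in DPCs numbered 1 in place of 2, without Fos, under DESeq2 size factors, total counts, a prior count of 10 and FPKM with a pseudocount of 1. Those 2-fold higher in DSCs numbered 2, with Fosb added, under FPKM with a pseudocount of 0.1. With a pseudocount of 1, Fosb lost its 2-fold calls, both for the passage change in DPCs (0.78) and for DPCs over DSCs at passage 3 (−0.54). Background shares moved most with a pseudocount of 1: in DPCs to 1.06% higher and 1.06% lower at 4-fold and 6.65% and 7.96% at 2-fold, in DSCs to 0.317% and 0.114% at 4-fold and 2.22% and 1.87% at 2-fold, and for DPCs over DSCs at 2-fold to 1.7% and 2.18% at passage 3 and 3.83% and 3.64% at passage 9. With a pseudocount of 0.1, the 4-fold shares in DSCs were 1.52% higher and 0.574% lower. A prior count of 10 gave 2.83% lower in DPCs and 1.4% higher and 0.621% lower in DSCs at 4-fold. At a mean count of 100 or more, the filter nearer to the members' depth, shares were 3.1% higher in DPCs and 1.21% higher and 0.484% lower in DSCs at 4-fold. At 2-fold they were 4.95% higher in DSCs, 3.07% higher and 4.97% lower for DPCs over DSCs at passage 3 and 5.53% higher at passage 9. Without a filter, 9.09% were 2-fold higher in DPCs at passage 3. The median of AP-1 targets for DPCs over DSCs at passage 3 was −0.12 and turned to 0.020 and 0.002 with FPKM pseudocounts of 0.1 and 1. The cause of these shifts was not tested. Of the 40 intervals, 35 excluded 0, and 1 of these no longer did with halved counts. All 28 family shares moved when raw counts replaced FPKM, and Jun then led the Jun family in 3 libraries. Pairing the passages within each cell type in the additive model left 0 members and 0 genes past an adjusted p of 0.05. Depth limits Fos and Fosb most, with 76 and 83 counts in low-passage DPCs.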
